A study of Mus musculus with 12 samples.

Results

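The Dlk1-Dio3 cluster is a run of imprinted microRNA (miRNA) genes on mouse chromosome 12. Its members were taken as all mouse miRNA names on the array with a probe that the files place between positions 110700000 and 111600000 of chromosome 12 (build mm9), whatever their signal. This gave 80 of the 696 miRNA names on the array, from 56 hairpins, and all of them lay within 203.354 kb. Of the 80 names, 58 were detected on at least 1 of the 12 arrays and were tested, of 443 miRNAs tested in all, and 22 were detected on none.

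The arrays profiled retina and sclera from C57BL/6J mice in which 1 eye had been form-deprived with a diffuser for 10 days, from postnatal day 24 to 34, while the other eye of the same animals served as the control. There were 4 groups of 3 arrays, namely retina and sclera of the deprived (myopic) eyes and retina and sclera of the contralateral control eyes, all at postnatal day 34. By the methods of the study each array held RNA pooled from 3 eyes, whereas the sample labels speak of single mice. The p-values therefore measure the spread between these 12 samples and nothing more.

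Genes of this region are expressed from 1 parental chromosome only. The miRNAs, like the long noncoding RNAs Meg3, Rian and Mirg, come from the maternally inherited chromosome, and those that lie antisense to Rtl1 are perfectly matched to the Rtl1 transcript of the paternal chromosome. Members of the cluster are known from brain, embryonic tissue and placenta, and in neurons miR-134 and miR-485 are known for roles at dendrites and synapses. In the mm9 coordinates the members fell into 5 positional groups separated by gaps of more than 10000 bases. In the RefSeq annotation (GRCm38.p6, where 53 of the 56 hairpins were matched by name) 11 hairpins lay within the span of Rtl1, 3 within Rian, 10 within Mirg and 1 within Meg3, and 28 were within none of them. The Rtl1 hairpins and miR-770 formed a group of 21 names from 12 hairpins, the Rian hairpins a group of 3 names, and the distal group, chr12:110947280-110986159, held 54 names from 39 hairpins, while miR-1906 and miR-882 stood alone. The files also place miR-1906 on chromosome X, so its signal cannot be assigned to this region alone.

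Mature sequences of 77 members were found in RefSeq (GRCm38.p6), 75 by name and 2 through the array probe. The 55 tested members with a sequence had 55 different seeds, the seed being bases 2 to 8, which pair with target mRNAs. The sequences are written 5′ to 3′ with the seed in capitals. The first set is shown because these neighbours at the start of the distal group, and miR-494-3p, were the members called higher in sclera in both sets of eyes under both normalizations used here, and miR-380-3p is their next detected neighbour.
miR-379-5p: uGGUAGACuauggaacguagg
miR-411-5p: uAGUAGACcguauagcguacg
miR-411-3p: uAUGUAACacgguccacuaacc
miR-299a-5p: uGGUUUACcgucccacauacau
miR-299b-5p: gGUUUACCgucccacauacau
miR-299-3p: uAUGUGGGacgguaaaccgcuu
miR-380-3p: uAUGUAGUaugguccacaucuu
miR-494-3p: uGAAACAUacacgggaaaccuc
The second set is shown because these members were detected in retina and on no sclera array, or differed most between the pools of retina.
miR-323-3p: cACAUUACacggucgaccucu
miR-496-3p: uGAGUAUUacauggccaaucuc
miR-673-3p: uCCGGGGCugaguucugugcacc
miR-539-5p: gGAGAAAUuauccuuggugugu
miR-485-3p: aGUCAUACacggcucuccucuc
miR-3072-5p: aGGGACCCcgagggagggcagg
miR-379-5p and miR-411-5p had the same base at 14 of 21 positions and at 6 of the 7 seed positions, and miR-411-3p and miR-380-3p at 14 of 22 positions and 5 seed positions. The array entry named miR-299b-5p carries the accessions of both miR-299a-5p and miR-299b-5p and maps to both strands, so their levels cannot be told apart. The entry miR-299-3p is miR-299a-3p in RefSeq, and miR-496-3p is miR-496a-3p.

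The levels given here are total gene signals, the sum of the intensities of a miRNA's detected probes as the scanner software gives it, divided by each array's 75th percentile (taken over the 246 miRNAs that every array detected) and brought to a common scale ("scaled signal"). Differences are on the log2 scale and are given under 2 normalizations, because many depended on that choice: quantile normalization, as in the methods of the study, and the 75th percentile scaling. A miRNA was called when its adjusted p (limma, Benjamini-Hochberg over 443 miRNAs) was under 0.05 and its fold change at least 2. Levels are not compared between miRNAs, since each has probes of its own.

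More members were detected in retina than in sclera, as held for all miRNAs on the array. Each retina array detected 50 to 55 members and each sclera array 39 to 45, with the fewest on control sclera 3. On all 3 arrays of a group, 49 members were detected in control retina, 52 in myopic retina, 38 in control sclera and 42 in myopic sclera, and over all miRNAs these counts were 330, 372, 271 and 287. In all, 37 members were detected on all 12 arrays, 44 in both tissues on at least 1 array each, 12 only in retina and 2 only in sclera. The share of names detected on any array was 72.5% in the cluster and 63.6% over all 696 names. The names detected on none were miR-770-5p, miR-673-5p, miR-540-5p, miR-540-3p, miR-665-3p, miR-127-5p, miR-1188-5p, miR-882, miR-380-5p, miR-1197-3p, miR-323-5p, miR-758-3p, miR-679-5p, miR-1193-3p, miR-667-3p, miR-376c-5p, miR-654-5p, miR-654-3p, miR-544-3p, miR-453, miR-412-3p and miR-3072-3p.

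**Figure D1:**
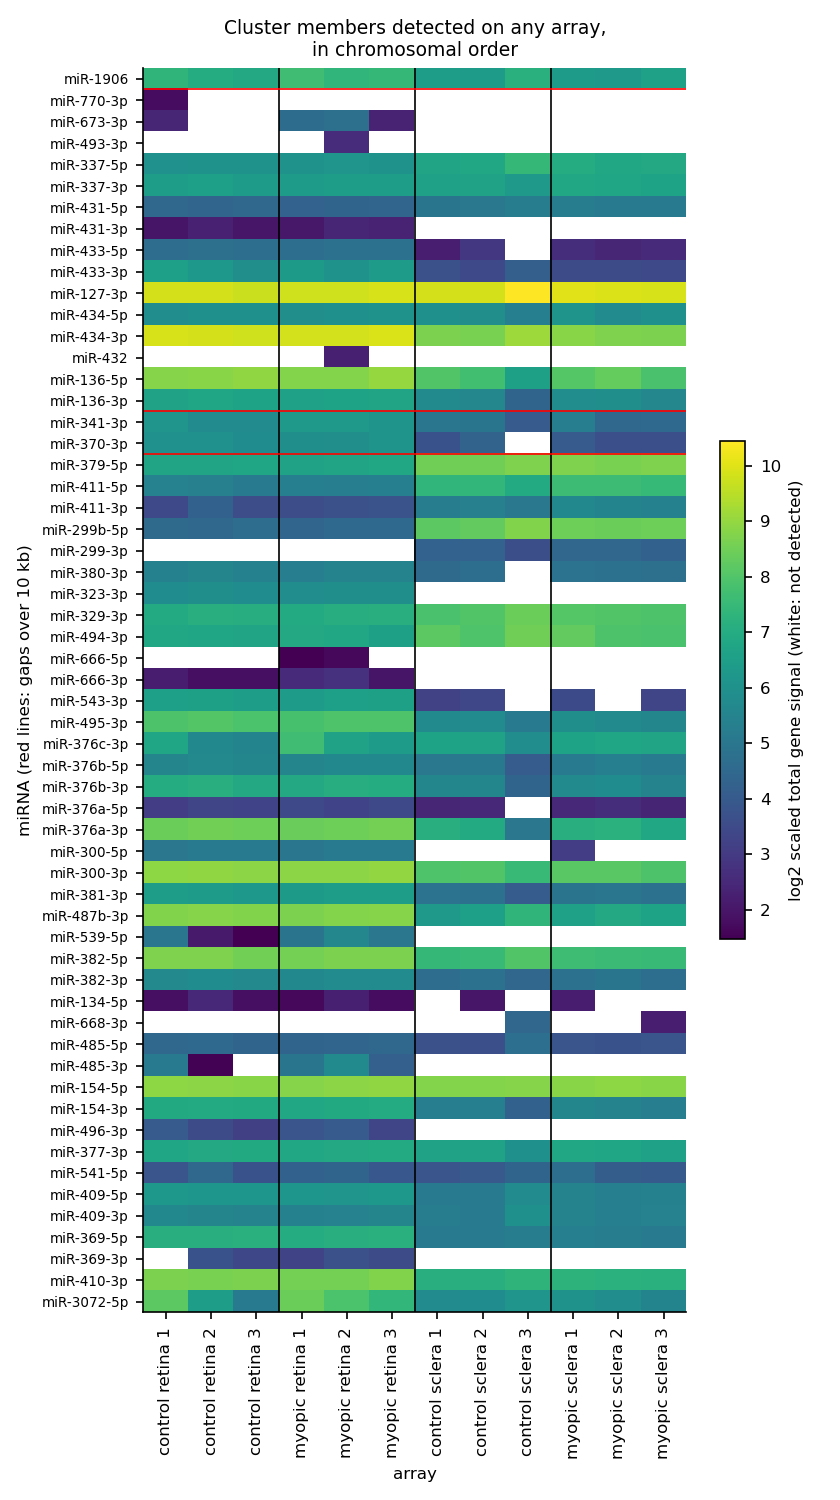
Scaled total gene signal (log2 colour scale) of the 58 detected members, 1 row each in chromosomal order, on the 12 arrays (columns, 3 per group), with white where a miRNA was not detected and red lines at gaps of more than 10000 bases. The rows of miR-379-5p, miR-411-5p and miR-299b-5p are brighter in sclera, those of miR-495-3p and miR-410-3p are brighter in retina, and 37 rows have no white cell.

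Some facts of the arrays touch every comparison of the tissues. The signals of control sclera 3 were multiplied by 3.06 to reach the common scale, those of the other sclera arrays by 1.05 to 1.94 and those of the retina arrays by 0.598 to 0.825. The 6 markers of retinal neurons (miR-124, miR-9, miR-128 and miR-181a arms) were all detected on every retina array and 5 of them on all arrays of each sclera group, where their summed scaled signal was 1.99% of the retina mean in control sclera 3 and 3.18% to 7.35% in the other sclera arrays. For the 4 markers of photoreceptors (of miR-183, miR-96 and miR-182) it was 1.43% in control sclera 3 and 3.36% to 8.62% in the others. The 7 mesenchymal markers (of miR-199a, miR-214, miR-143 and miR-145), 6 of them detected, summed to 123.1 to 281 in retina and to 14347 to 17382 in sclera, and the 4 muscle markers to 164 to 265 and 2240 to 4107. In the mesenchymal list miR-214-5p went the other way, with 10.6 to 14.4 in sclera and 18.0 to 182 on the retina arrays that detected it. In sclera the pigment cell list was at 33.6% to 77.2% of its retina mean and lens and surface epithelium at 90.0% to 734%. Leukocytes were at 956% to 1123%, except miR-150-5p at 40.1% to 97.6%, and erythroid cells at 320% to 435%. The labelled tissues thus carried their defining markers beside those of other cells. The part of other cells in the results was not tested, and in bulk tissue fewer cells of a type and less RNA per cell cannot be told apart. Each group also had its own position on the slides, so position and group cannot be told apart.

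The comparison of retina with sclera asks where the members are expressed, and control and myopic eyes answer it with separate arrays. The eyes are of the same animals and share 1 fit and normalization, so the 2 answers are not independent. In control eyes 15 of the 58 tested members were called higher in retina, where 27.5% of all tested miRNAs were, and 9 were called higher in sclera, where 23.0% of all were. With 75th percentile scaling 26 were called higher in retina (36.1% of all) and 7 higher in sclera (18.3% of all). In myopic eyes the counts were 13 higher in retina (32.5% of all) and 14 higher in sclera (26.4% of all) after quantile normalization, and 26 (44.2% of all) and 6 (18.5% of all) after scaling. The median difference over the 58 members, retina minus sclera, was 0.65 in control eyes and 0.30 in myopic eyes after quantile normalization, and 1.06 and 1.05 after scaling. Over all 443 miRNAs it was 0.30 and 0.36 after quantile normalization and 0.79 and 1.08 after scaling, so the scaling moved the whole array toward retina. Members not detected in one tissue enter these medians at a floor. Each was then set at its bound, or at no difference where the bound did not exceed 1-fold. The bound exceeded 1-fold for 5 of 12 such members in control eyes and 9 of 13 in myopic eyes. The medians were then 0.06 and 0.02 after quantile normalization and 0.52 and 0.81 after scaling. All bounds came from scaled signals, so the quantile medians mix 2 scales. No member was called in opposite directions in control and myopic eyes. With normexp background correction and an offset of 50, which adds a constant to every signal, 1 member was called in control eyes (14.0% of all miRNAs) and 2 in myopic eyes (15.8% of all).

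Called in both sets of eyes under both normalizations were 6 members higher in sclera and 10 higher in retina. Each of the 6, and 9 of the 10, kept its direction in all 3 same-numbered pairs of arrays, each on 1 slide, under both normalizations.

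The members called higher in sclera under both normalizations lay side by side at the start of the distal group, apart from miR-494-3p a few hairpins on. In the Rtl1 group, miR-337-5p and miR-431-5p were called higher in sclera in both sets of eyes after quantile normalization only. After scaling miR-337-5p had -0.95 in control and -0.83 in myopic eyes, and miR-431-5p -0.63 and -0.85, under the fold limit. miR-379-5p (chr12:110947280-110947295), the first member of the distal group, had scaled signals of 105, 105 and 110 in control retina and 99.2, 104 and 115 in myopic retina, against 362, 364 and 413 in control sclera and 420, 402 and 422 in myopic sclera. The tissues did not overlap. Retina minus sclera was -2.01 ± 0.18 (SE, n = 3 per group, limma adjusted p = 6.93e-06) in control eyes and -2.53 ± 0.18 (limma adjusted p = 1.08e-06) in myopic eyes, and -1.83 ± 0.10 and -1.97 ± 0.10 after scaling.

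Both arms of the next hairpin followed it. miR-411-5p (chr12:110948403-110948420) had scaled signals of 43.4, 41.5 and 35.8 in control retina and 40.3, 39.5 and 40.8 in myopic retina, and of 168, 169 and 124 in control sclera and 198, 197 and 181 in myopic sclera. miR-411-3p (chr12:110948440-110948456) had 10.9, 19.3 and 12.2 in control retina and 12.0, 13.0 and 13.5 in myopic retina, against 37.5, 41.2 and 33.7 in control sclera and 50.1, 45.6 and 42.7 in myopic sclera. Again every sclera array was above every retina array. The difference in control eyes was -2.22 ± 0.20 for miR-411-5p (limma adjusted p = 7.09e-06) and -1.97 ± 0.40 for miR-411-3p (limma adjusted p = 1.82e-03), and -1.92 and -1.45 after scaling. Among the retina arrays a second probe added to miR-411-3p on control retina 2 only, and where each tissue was quantile normalized by itself its difference in control eyes was 0.12, in the other direction.

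The entry for miR-299a-5p and miR-299b-5p (chr12:110948856-110948875) showed the widest gap among members detected on all arrays. Its scaled signals were 23.8, 22.4 and 25.4 in control retina, 20.9, 23.2 and 23.1 in myopic retina, 290, 310 and 432.8 in control sclera and 349, 340 and 353 in myopic sclera. Retina minus sclera was -3.88 ± 0.30 in control eyes (limma adjusted p = 2.96e-06) and -4.90 ± 0.30 in myopic eyes (limma adjusted p = 4.37e-07), and -3.83 and -3.96 after scaling. The other arm, miR-299-3p (chr12:110948891-110948907), was not detected on any retina array and had scaled signals of 19.6, 19.4 and 12.5 in control sclera and 21.9, 21.7 and 19.1 in myopic sclera. It was at least 5.88-fold higher in sclera in control eyes and at least 7.84-fold in myopic eyes, taking the dimmest signal among the detected miRNAs of each retina array as the limit. Its limma adjusted p (2.79e-11 and 1.79e-11) came from the fit with the retina arrays at the floor and does not test that limit. In control eyes the 2 probes gave like values after scaling for miR-379-5p (-1.89 and -1.82), miR-411-5p (-1.93 and -1.90) and miR-299b-5p (-3.89 and -3.66). This did not hold for every member of the cluster, as the 2 probes of miR-3072-5p gave 0.43 and 1.15.

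The members that followed differed in direction. miR-380-3p (chr12:110950053-110950073) had scaled signals of 39.9 to 46.7 in retina, 23.9 and 26.2 on the 2 control sclera arrays that detected it, and 27.2 to 29.8 in myopic sclera, and was called in neither set of eyes. With the control sclera array that did not detect it at the floor, its fitted difference in control eyes was 2.29, and in myopic eyes it was -0.61 after quantile normalization and 0.60 after scaling, so its direction there turned with the normalization. miR-323-3p (chr12:110950770-110950788) was detected on no sclera array and had 57.3, 61.9 and 57.5 in control retina and 58.3, 60.7 and 61.0 in myopic retina. Its retina signal was 12.2 and 13.1 times the detection limit of the sclera arrays in control and myopic eyes. That signal sums 2 probes and the limit is a single signal, so these are not strict lower bounds. Its limma adjusted p (8.28e-10 and 1.48e-09) came from the fit with the sclera arrays at the floor and does not test these ratios. Then miR-329-3p and miR-494-3p were again higher in sclera. miR-494-3p (chr12:110953584-110953598) had 116, 110 and 104 in control retina and 118, 114 and 95.02 in myopic retina, against 287, 251 and 364 in control sclera and 314, 246 and 233 in myopic sclera, a difference of -1.63 ± 0.16 in control eyes (limma adjusted p = 1.13e-05) and -1.43 after scaling. miR-329-3p was called in both sets of eyes after quantile normalization (-1.28 and -1.62), and after scaling only in control eyes (-1.05), with -0.97 in myopic eyes, and its difference in control eyes turned to 0.23 where each tissue was quantile normalized by itself.

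**Figure D2:**
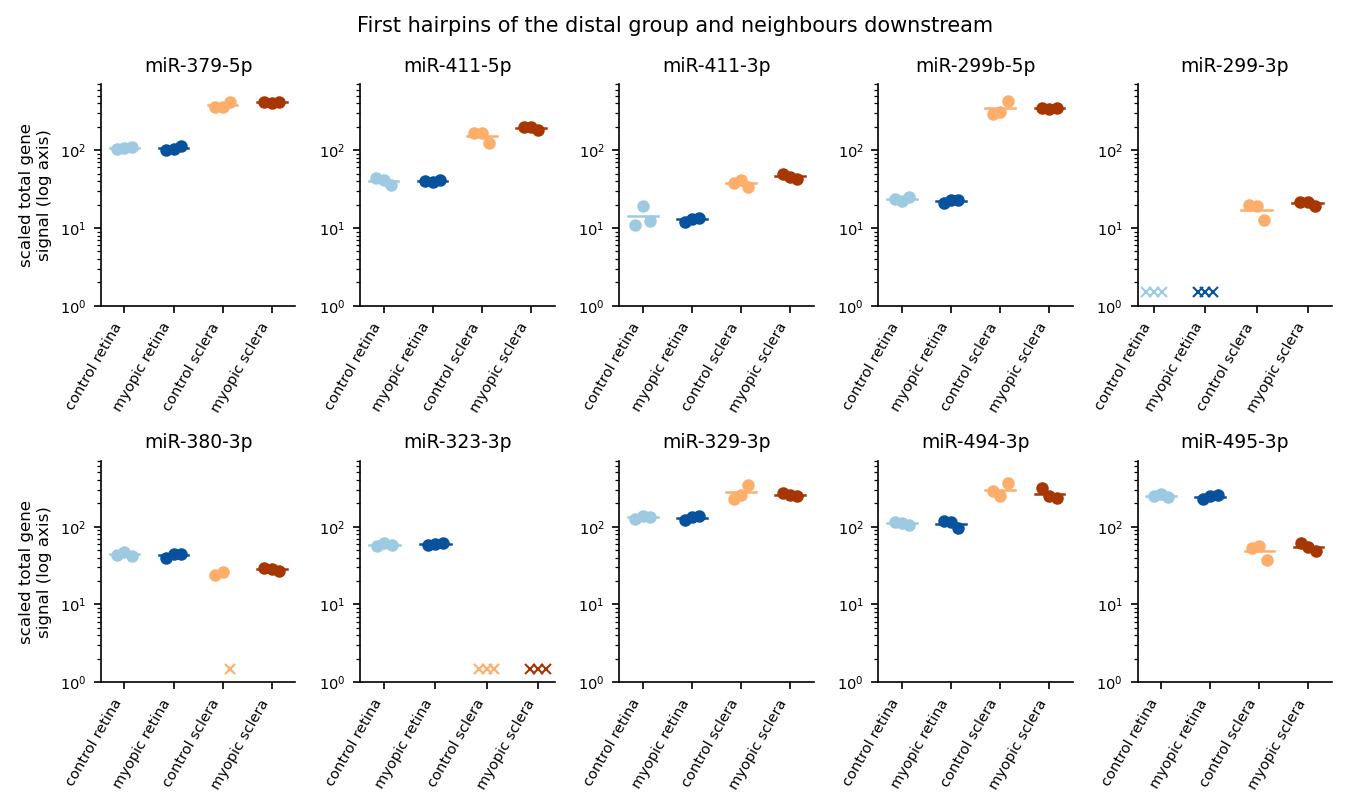
Scaled signal (log axis) of 10 members at the start of the distal group, 1 panel each, with 1 point per array in control and myopic retina and sclera, a line at the mean where all 3 arrays of the group detected the miRNA and a cross where an array did not. Sclera lies above retina for miR-379-5p, miR-411-5p, miR-411-3p, miR-299b-5p, miR-329-3p and miR-494-3p, miR-299-3p has points in sclera only, miR-323-3p in retina only, and miR-495-3p is higher in retina.

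Among the 10 members higher in retina, 3 were detected on all 12 arrays. miR-495-3p had scaled signals of 245, 264 and 239 in control retina and 229, 250 and 253 in myopic retina, and of 53.6, 55.7 and 36.8 in control sclera and 61.4, 54.5 and 48.4 in myopic sclera. It was 1.68 ± 0.19 higher in control retina on the log2 scale (limma adjusted p = 3.80e-05), and 2.38 after scaling. miR-487b-3p was 1.51 higher in control and 1.33 higher in myopic retina, and miR-433-3p, an Rtl1 antisense miRNA, 1.56 and 1.35. The levels of both did not overlap between tissues.

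Of the 10 members higher in retina, those detected on no sclera array were miR-323-3p, miR-539-5p, miR-496-3p, miR-431-3p, miR-666-3p and miR-369-3p, and miR-300-5p was detected on 1 sclera array. Against the detection limit of the sclera arrays, miR-300-5p was 7.13-fold and miR-496-3p 2.14-fold higher in control retina. miR-539-5p was 1.51-fold higher there and 7.95-fold in myopic retina. These are not strict lower bounds, since the signals sum up to 4 detected probes and the limit is a single signal. The 20-base probe of miR-539-5p alone had 9.74, 13.8 and 9.52 in myopic retina, against a limit of 4.59. The calls of miR-431-3p and miR-666-3p in control eyes rest on the floor given to undetected values, since their mean retina signals lay below the detection limit of the sclera arrays. miR-369-3p was not detected on control retina 1 and had scaled signals of 13.5 and 10.7 on control retina 2 and 3, and its mean over the 3 arrays, with the first at the floor, also lay below that limit. No fold is given for the 3 members in control eyes. In myopic eyes their signals were 1.06, 1.17 and 2.49 times the limit.

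Other members of the Rtl1 group and the distal group took intermediate places. miR-127-3p, an Rtl1 antisense miRNA, had 926, 919 and 851 in control retina and 931, 921 and 1387 in control sclera and was called in no set of eyes (-0.22 in control eyes, -0.24 after scaling). miR-154-5p also differed little, by -0.02 and, after scaling, 0.10. miR-410-3p was 0.99 higher in control retina, just under the fold limit, and 1.49 after scaling, which is a call. The direction turned from sclera to retina with the scaling for 6 of the 58 members in control eyes (miR-1906, miR-434-5p, miR-485-5p, miR-154-5p, miR-377-3p and miR-409-3p) and for 12 in myopic eyes (miR-434-5p, miR-136-3p, miR-380-3p, miR-376c-3p, miR-376b-5p, miR-376a-5p, miR-382-3p, miR-485-5p, miR-154-5p, miR-377-3p, miR-409-5p and miR-409-3p). Of these, miR-434-5p, miR-485-5p and miR-409-3p in myopic eyes had been called higher in sclera, and went from -1.08, -1.08 and -1.11 to 0.03, 0.61 and 0.05. miR-376a-5p turned furthest, from -1.53 to 0.89.

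By position, 3 of the 15 tested members of the Rtl1 group were called higher in retina and 2 higher in sclera in control eyes (6 and 0 after scaling), and 12 and 7 of the 40 tested members of the distal group (18 and 7 after scaling), where 27.5% and 23.0% of all miRNAs were called (36.1% and 18.3% after scaling). In myopic eyes these were 4 and 4 (5 and 0) in the Rtl1 group and 9 and 10 (19 and 6) in the distal group, where 32.5% and 26.4% of all miRNAs were called (44.2% and 18.5%). Of the 24 hairpins with both arms on the array, 15 had both arms tested and 8 had both detected on all arrays. In these 8 the arms had the same sign in 8 in both sets of eyes after scaling, but after quantile normalization in 5 in control eyes and 3 in myopic eyes. After scaling, the difference between arms in control eyes had a median size of 0.79 and ran from 0.00275 to 1.88. miR-154 was the widest, with 0.10 for the 5p arm and 1.98 for the 3p arm after scaling.

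**Figure D3:**
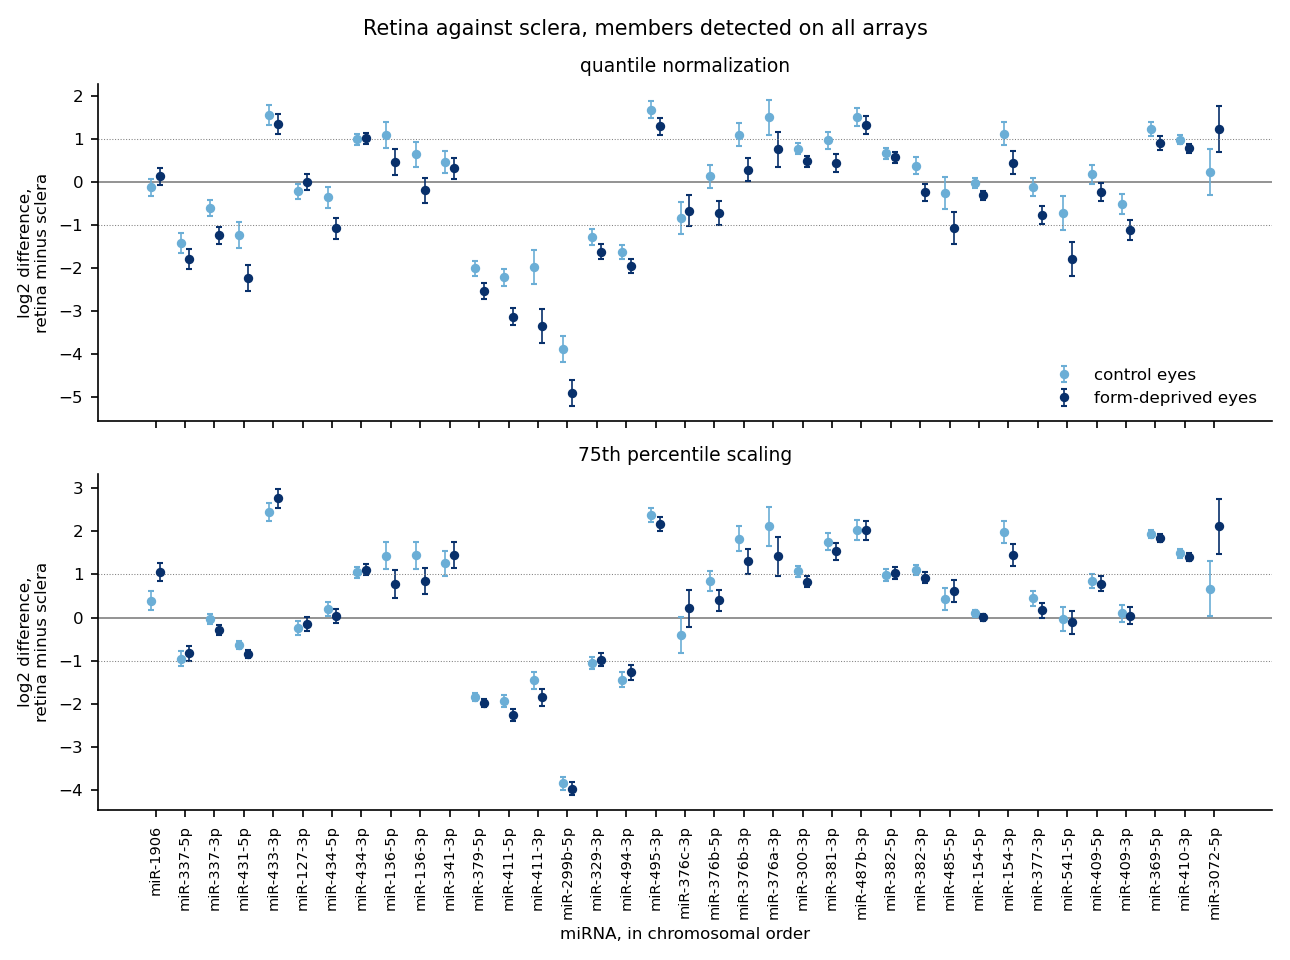
Difference between retina and sclera (log2, retina minus sclera, ± SE from limma) of the 37 members detected on all 12 arrays, in chromosomal order, in control and myopic eyes, with 1 panel for each normalization and dotted lines at 2-fold. miR-379-5p to miR-299b-5p lie below the lower dotted line in both sets of eyes and both panels, miR-299b-5p is lowest, and the 75th percentile panel is shifted toward retina.

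The level in sclera of the 37 members detected on all arrays was, in the median, 53.6% to 61.8% of the retina mean on each sclera array, and single members ran from 9.16% to 1873%. Control sclera 3 stood highest of the sclera arrays for some members that were higher in retina, and lowest for several others. It was highest for miR-433-3p, at 23.5% of the retina mean (14.2% to 16.9% on the other sclera arrays). The same held for miR-487b-3p, at 37.4% (18.8% to 27.4%), miR-434-3p and miR-382-5p. Members for which it was lowest follow. miR-376a-3p had 137, 125 and 32.6 in control sclera and 136.4, 149 and 115 in myopic sclera, against 347 to 368.97 in control retina and 336 to 377 in myopic retina, and miR-136-5p had 254, 212 and 94.98 in control sclera. The 2 marker lists of retinal cells were also lowest on that array, and the part of this in the results was not tested. Without control sclera 3 the median over the members in control eyes was 0.34 (0.94 after scaling), and miR-376a-3p, miR-136-5p, miR-154-3p and miR-376b-3p fell below the 2-fold limit (0.91, 0.70, 0.82 and 0.79). In myopic eyes the median ran from 0.12 without myopic retina 3 to 0.39 without myopic sclera 1.

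Form deprivation asks whether members changed within a tissue. In retina, 0 of the 58 members were called by limma under either normalization, where 0.226% of all miRNAs (1 of 443) were. At an unadjusted p under 0.05 there were 16 members after quantile normalization and 5 after scaling, counts that are not set against all miRNAs here. On the deposited values 1 member was called (miR-496-3p), where 0.458% of all were. The median change was -0.36 over the members and -0.12 over all miRNAs after quantile normalization, and 0.00 for both after scaling. Of the 49 members detected on all 6 retina arrays, 43 were lower and 6 higher in myopic eyes after quantile normalization. Of all 329 miRNAs so detected, 233 were lower and 91 higher. After scaling, 38 of the 49 members lay within 0.1 of 0 on the log2 scale (77.6%, against 60.2% of the 329). Most members differed little between pools. The coefficient of variation of the scaled signal over the 6 retina arrays had a median of 4.94% for the 49 members and 9.34% for all 329, and was under 10% for 37 members and over 20% for 9.

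**Figure D4:**
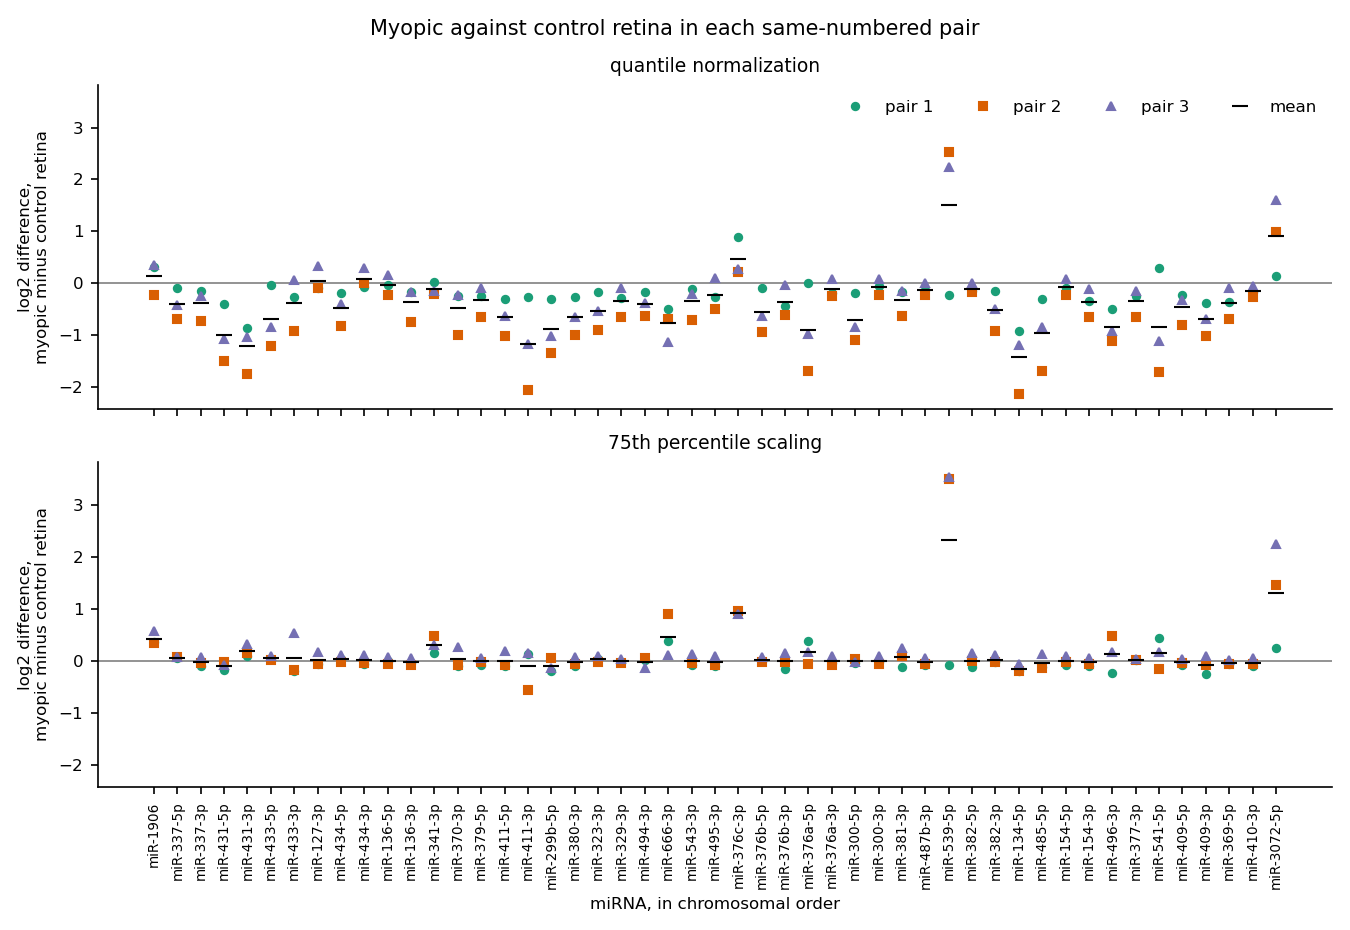
Change in myopic against control retina (log2) of the 49 members detected on all 6 retina arrays, in chromosomal order, with 1 point for each of the 3 same-numbered pairs and a mark at their mean, and 1 panel for each normalization. After 75th percentile scaling 38 of the 49 means lie within 0.1 of 0, while after quantile normalization 43 of the 49 means lie below 0.

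The total gene signal depends on how many probes were detected. That number varied over the retina arrays for 8 of the 49 members (miR-433-3p, miR-411-3p, miR-666-3p, miR-376c-3p, miR-376a-5p, miR-539-5p, miR-496-3p and miR-541-5p), whose coefficient of variation had a median of 23.2%, and was constant for 41, with a median of 4.87%. With 1 probe a member, the longest measured on all 6 arrays, 42 of the 49 lay within 0.1 of 0 and 3 beyond 0.25: miR-376c-3p (0.54), miR-539-5p (1.12) and miR-3072-5p (1.24).

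A few members differed between pools of control retina. miR-539-5p (chr12:110966348-110966367) had scaled signals of 32.0, 4.38 and 2.78 in control retina and 30.3, 49.4 and 32.5 in myopic retina. miR-485-3p (chr12:110973162-110973177) had 36.4 and 2.92 and was not detected in control retina 3, with 31.4, 53.3 and 18.9 in myopic retina. miR-673-3p (chr12:110810261-110810276) had 5.40 in control retina 1 and was not detected in the others, with 25.1, 27.5 and 5.16 in myopic retina. In all 3, control retina 1 was the highest of the control arrays and lay within the range of the myopic arrays. Markers of other cells also differed over these control pools. Of the 4 lens and surface epithelium markers, 3 were detected on any array, and their sum was 84.2 to 4043 in control retina and 440 to 503 in myopic retina, led by miR-184-3p with 74.8, 1149 and 4023 in control retina 1, 2 and 3. In the mesenchymal list, whose sum was 123.1 to 281 in control and 221 to 274 in myopic retina, miR-214-3p was not detected on any retina array, while miR-214-5p had 109.1 and 18.0 on control retina 1 and 2, was not detected on control retina 3 and had 127.3 to 182 in myopic retina. In the muscle list, with a sum of 164 to 239 in control and 187 to 265 in myopic retina, miR-206-3p had 81.2, 22.2 and 10.8 in control and 78.0 to 152 in myopic retina. Like the 3 members, miR-214-5p and miR-206-3p were highest on control retina 1 among the control arrays, whereas miR-184-3p was lowest there. The other mesenchymal and muscle markers detected in control retina were also lowest there (miR-143-3p, miR-145-5p, both miR-199a arms, miR-133a-3p and miR-133b-3p). On control retina 1, 2 and 3, miR-199a-3p had 29.3, 38.6 and 148, and miR-133b-3p had 58.4, 94.3 and 151. The part of these markers in the result was not tested.

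miR-3072-5p (chr12:110986112-110986124), at the far end of the cluster, had 291, 87.9 and 35.4 in control retina and 344, 241 and 169 in myopic retina, and the groups overlapped through control retina 1. miR-376c-3p had 110, 51.1 and 45.5 in control retina and 209, 98.7 and 85.0 in myopic retina, higher in each same-numbered pair. None of these 5 members was called. For miR-539-5p, detected on all 6 arrays, the change was 1.51 ± 0.49 (limma adjusted p = 0.134), and 2.32 after scaling (limma adjusted p = 0.213). miR-673-3p had the same adjusted p in each limma fit, but with 2 control arrays at the floor its fitted size depends on the floor and is not given. By contrast miR-485-5p, from the same hairpin as miR-485-3p, had 22.4, 23.0 and 20.7 in control and 20.6, 21.0 and 22.7 in myopic retina.

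The calls turned on control retina 1. Without it, miR-3072-5p, miR-485-3p, miR-539-5p and miR-673-3p were called higher in myopic retina (14.7% of all miRNAs) and 8 members lower (12.9% of all) after quantile normalization, and after scaling 5 were called higher, these 4 and miR-376c-3p (15.8% of all), and 0 lower (0.451% of all). The calls without that array therefore rose over the whole array, and not in the cluster alone. The change was then 1.57 for miR-3072-5p and 2.21 for miR-539-5p, while miR-485-3p and miR-673-3p had control arrays at the floor. Without myopic retina 3, 2 members were called higher (2.03% of all) and 1 lower (1.13% of all) after quantile normalization. miR-496-3p (chr12:110977379-110977396) had the smallest p of the members after quantile normalization, with a change of -0.84 ± 0.14 (limma adjusted p = 0.0412) that did not reach 2-fold and was 0.14 after scaling. Its scaled signals were 16.5, 11.9 and 9.10 in control and 14.1, 16.5 and 10.3 in myopic retina, which overlap, and with its longest probe alone they were 10.7, 11.9 and 9.10, and 9.46, 10.4 and 10.3.

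**Figure D5:**
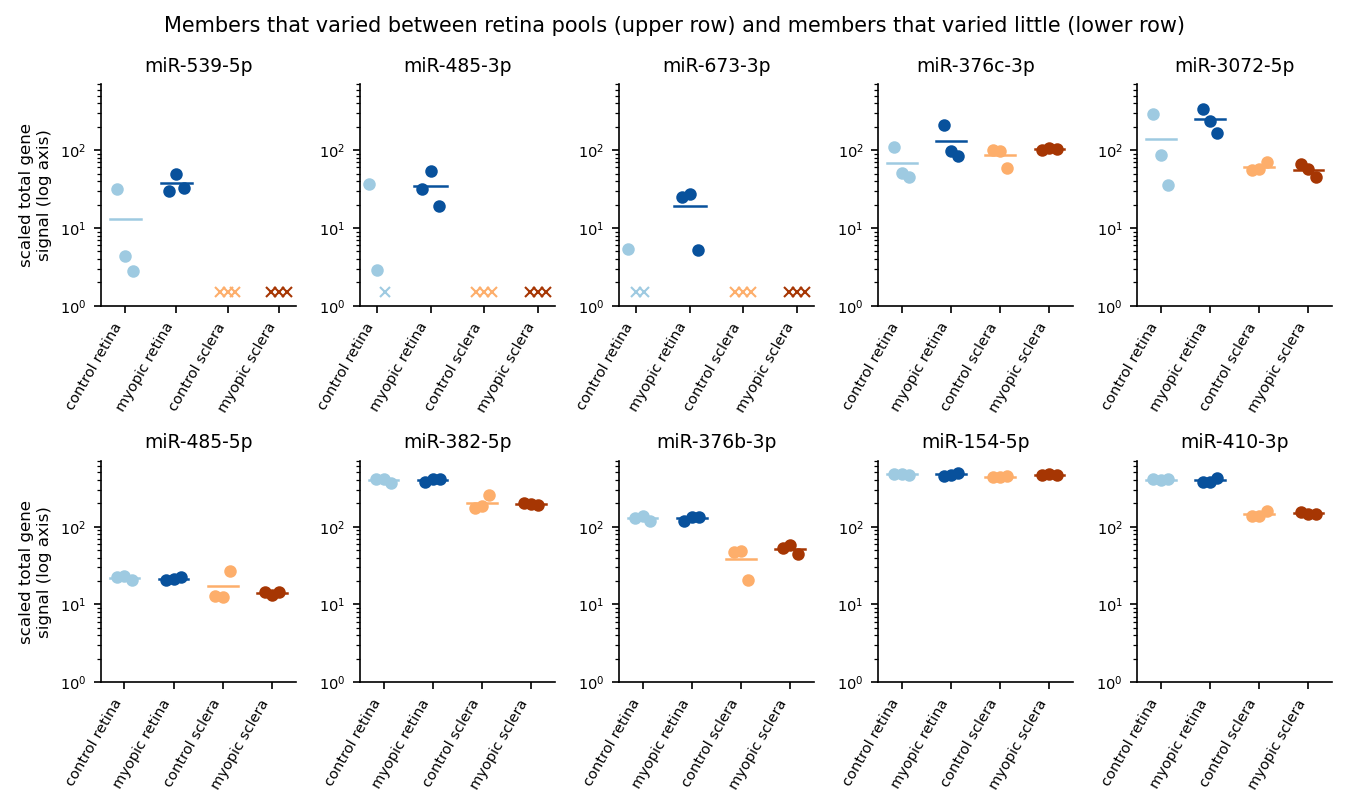
Scaled signal (log axis) on the 12 arrays, by group, of 5 members that varied between pools of retina (upper row, miR-539-5p, miR-485-3p, miR-673-3p, miR-376c-3p and miR-3072-5p) and 5 that varied little (lower row, miR-485-5p, miR-382-5p, miR-376b-3p, miR-154-5p and miR-410-3p), with points for arrays, a line at the mean where all 3 arrays of a group detected the miRNA and crosses where an array did not. The leftmost control retina point, control retina 1, lies within the range of the myopic retina arrays for miR-539-5p, miR-485-3p and miR-3072-5p, and in the lower row the 6 retina points lie close together.

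In sclera, 0 of the 58 members were called by limma under either normalization, where 0.0% of all miRNAs were, and 1 had an unadjusted p under 0.05 under each. The median change was 0.05 over the members and 0.00 over all miRNAs. Of the 38 members detected on all 6 sclera arrays, 26 were higher and 12 lower in myopic eyes after quantile normalization, with a median of 0.16. Of all 266 miRNAs so detected, 137 were higher and 129 lower, with a median of 0.004. The 38 members had a median coefficient of variation of 17.7% over the sclera arrays, against 19.9% for all 266. The smallest p was that of miR-299-3p, with a change of 0.29, and miR-136-5p followed with 0.60 (both limma adjusted p = 1.00).

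The difference between the responses of retina and sclera was taken as the interaction term of the limma fit, and 0 of the 58 members were called by limma, where 0.226% of all miRNAs (1 of 443) were. At an unadjusted p under 0.05 there were 9 after quantile normalization and 1 after scaling, again not set against all miRNAs. The median difference, retina response minus sclera response, was -0.53 over the members and -0.19 over all miRNAs, and -0.08 and 0.08 after scaling. miR-411-5p had -0.92 (limma adjusted p = 0.380) and -0.33 after scaling. Without control retina 1, 4 members were called higher (13.5% of all miRNAs) and 9 lower (11.5% of all) after quantile normalization, and 4 (14.2% of all) and 0 (0.226% of all) after scaling.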

How the data were processed

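Retina and sclera RNA was hybridised to 1-colour Agilent mouse miRNA arrays (12 arrays, 3 per group). The deposited scanner files hold intensity values made by the authors with Agilent Feature Extraction, and the total gene signal of each miRNA was used. The deposited log2 values, which the authors made with Partek 6.6 after quantile normalization, served as an alternative. They hold 437 miRNAs, 57 of them members. How they were filtered is not given in the sources used here, but they correlated with the values used here (r = 0.999 across miRNAs, which are not independent replicates).

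Total gene signals were floored at 0.5, quantile normalized over 696 names and put on the log2 scale, where undetected miRNAs lie at -1. One limma (3.58.1, R 4.3.3) fit over 4 groups, without a block, tested 443 miRNAs detected on at least 1 array, with Benjamini-Hochberg adjustment. Precision is limited by the 12 arrays. The fit was tested on simulated data. A bound sets the mean of the brighter group against the higher of the dimmest detected signal and the dim signal itself, per array. The brighter signal sums the detected probes and the limit is a single signal. With several probes detected, the bound is therefore not a strict lower limit. Named members were, per comparison, up to 8 called members in each direction detected on all arrays compared and changed the same way in all 3 pairs, up to 6 called members detected in 1 group only, the 5 with the smallest p for each response, those the study lists, well-known members and hairpins with both arms on the array. miR-3072-5p, miR-380-3p and miR-668-3p were chosen after their values were seen. The members and lists were chosen with earlier results of these data known.

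Replicate numbers mark the same mouse number in the labels and the same slide. The correlation of same-numbered deviations over 246 miRNAs was 0.38, -0.46 and 0.59 for retina pairs and -0.14, -0.16 and -0.00 for sclera pairs. The alternatives were other normalizations, floors, background corrections, filters and tests, the replicate block and leaving out each array, and the scaling with the block or with an array left out, and single probes, were chosen after seeing the data.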

Additional observations from a re-analysis of the deposited data

How the results depend on the processing

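Over the alternatives, 1503 of the values of named members kept their direction and side of the threshold, 74 lost a call, 53 gained one and 21 turned direction. The normalization mattered most. Counts of called members are given in this section without the share over all miRNAs, and describe the processing, not the cluster. The median over the members was 1.06 in control eyes and 1.05 in myopic eyes after 75th percentile scaling (also with the replicate block), 0.0043 for the retina response and -0.081 for the difference of responses. Where each tissue was quantile normalized by itself, the tissue medians were 2.15 and 1.78 with 44 and 42 members called, and the difference turned in control eyes for miR-411-3p (0.12), miR-337-5p (0.32), miR-329-3p (0.23) and miR-431-5p (0.80) and in myopic eyes for miR-541-5p (0.50), miR-434-5p (0.82) and miR-485-5p (1.31). After scaling, 6 of the 58 members turned in control eyes and 12 in myopic eyes, among them miR-434-5p (0.035) and miR-485-5p (0.61) in myopic eyes, and miR-496-3p (0.14) and miR-666-3p (0.46) turned in the retina response and in the difference of responses, as did miR-431-3p (0.18) in the retina response. With normexp correction 1 and 2 members were called in the tissue comparisons, with medians of 0.032 and 0.012, and the medians were -0.052 for the retina response and -0.076 for the difference. With the floor at the dimmest detected signal the tissue medians were 0.33 and 0.053, without a filter 0.00 and 0.00 (difference of responses -0.25), and over members detected on all 12 arrays 0.13 and -0.24, with 17 calls in myopic eyes since fewer miRNAs were tested. On the deposited values the myopic-eye median was 0.11 and 1 member was called in the retina response, and on processed spot signals the median was 0.14. Elsewhere the cause was not tested.

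Leaving out each array gave 23 to 27 calls in control eyes (median 0.34 to 0.76) and 25 to 29 in myopic eyes (0.12 to 0.39), and after scaling 29 to 35 (0.94 to 1.22) and 29 to 33 (0.93 to 1.05). For the retina response there were 0 to 12 calls (median -0.50 to -0.26), after scaling 0 to 5 (-0.013 to 0.038), for the sclera response 0 (0.00 to 0.11), after scaling 0 (0.00 to 0.09), and for the difference 0 to 13 (-0.67 to -0.42), after scaling 0 to 4 (-0.11 to 0.0071). The value of miR-376a-5p in control eyes ran from -0.32 to 2.05, of miR-433-5p in myopic eyes from -0.11 to 0.15 and of miR-431-5p in the sclera response from -0.049 to 0.074. With the replicate block 24 and 28 members were called in the tissue comparisons (32 and 32 after scaling) and 0 in the others, so the pairing moved no count by over 1.5 times. Counting a member as detected on at least 1 array gave 53 in control retina, 45 in control sclera, 55 in myopic retina and 46 in myopic sclera. Dim members near the detection limit were the least certain.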

Other observations

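The probes of miR-376c-3p disagreed on the tissue. Its 21-base probe gave scaled signals of 40.2, 27.1 and 26.6 in control retina and 59.8, 57.3 and 39.8 in control sclera, and 65.1, 38.3 and 36.1 in myopic retina and 59.6, 62.2 and 62.3 in myopic sclera. Its 18-base probe was detected on no sclera array, and gave 16.3 on control retina 1 and 39.1, 14.6 and 9.81 in myopic retina. miR-668-3p was detected on 2 arrays only, with 21.4 on control sclera 3 and 4.67 on myopic sclera 3.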
